A study of Mus musculus with 24 samples.

Results

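Genes of endoplasmic reticulum (ER) stress and protein folding were examined in sorted Nav1.8-positive neurons of mice that lacked or carried a working allele of Tsc2, whose product restrains the growth-promoting kinase complex mTORC1. The 38 genes were given by name, with no measured value in the rule, and all 38 were found among the 47643 gene identifiers of the count files. They comprised 4 sensors and transcription factors of the unfolded protein response, 15 chaperones and folding enzymes of the ER, 7 genes of ER-associated degradation (ERAD), 2 regulatory subunits of the eIF2 phosphatase and 10 cytosolic heat shock genes.

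RNA was sequenced from L4 dorsal root ganglion (DRG) cells sorted for the green fluorescence of the reporter. Control mice carried Nav1.8-Cre, Rosa26-ZsGreen and 1 floxed Tsc2 allele beside a normal one (Tsc2 flox/+), so that their Cre-expressing neurons kept 1 copy of the gene. Nav-Tsc2 mice carried the same Cre driver and reporter, with the floxed allele opposite a null allele that every cell of the body inherits (Tsc2 flox/null). Each genotype had 4 mice of 8 to 9 weeks on a mixed C57BL/6 and AJ background, of which replicates 1 and 2 were male and replicates 3 and 4 female. All 8 mice had a crushed sciatic nerve, and the ganglia were taken from the uncrushed side 3 d later. Each mouse gave 3 libraries of about 100 cells, which were summed, so that n counts mice. Because Cre is driven by a Nav1.8 transgene, the sort holds nociceptors together with other sensory neurons in which that transgene is or once was active.

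Libraries held between 8339220 and 34228180 counts on genes. Tsc2, the deleted gene, lay between 13.4 and 24.7 normalized CPM (counts scaled to library size) in control mice and between 7.30 and 11.0 CPM in Nav-Tsc2 mice (log2 fold change = -1.24, SE 0.22, adjusted p = 0.00400, edgeR). The 10 neuron markers, Scn10a among them, summed to 17065 to 21776 CPM in control and 18627 to 21722 CPM in Nav-Tsc2 mice. All 10 were detected, with Prph called higher and Snap25 and Rbfox3 lower. Marker sums of other cells were small beside these. The 10 glial markers summed to 543 to 818 CPM in control and 509 to 737 CPM in Nav-Tsc2 mice, and the 6 fibroblast markers to 73.1 to 236 and 121 to 196 CPM. The sums of the 7 endothelial markers (0.966 to 2.26 against 5.90 to 16.0 CPM) and of the 8 macrophage markers (1.95 to 6.95 against 7.76 to 19.7 CPM) were higher in every Nav-Tsc2 mouse than in every control mouse. Of these markers, 3 endothelial and 5 macrophage genes were tested. Flt1, Kdr and Cx3cr1 were called higher, with Flt1 and Cx3cr1 near 0.03 CPM in control mice and Kdr called in 7 of 16 other fits. Tek, Cd68, Csf1r and Aif1 had positive log2 fold changes and C1qb a negative one (-1.60), all uncalled. The part of these cells in the results below was not tested. The 5 red blood cell markers, of which 1 was at 0 throughout, summed to 1.63 to 2.80 CPM in control and 0.473 to 0.672 CPM in Nav-Tsc2 mice. In such bulk samples, fewer cells of a type and less RNA per cell cannot be told apart.

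Proteins that enter the secretory pathway fold in the ER with the help of chaperones, lectins and disulfide isomerases. When unfolded proteins build up, the membrane sensors IRE1, ATF6 and PERK start the unfolded protein response: IRE1 cuts the Xbp1 mRNA so that it encodes an active factor, ATF6 is cleaved to release a factor, and PERK phosphorylates eIF2, which slows translation and favors that of ATF4. In the cytosol a separate heat shock response, led by HSF1, raises the HSP70, HSP40, HSP90 and small heat shock proteins. Sensory neurons make large amounts of channels, receptors and peptides through the ER, and mTORC1 raises the load of new protein in both compartments.

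Many ER chaperone genes share a promoter element, the ER stress response element (ERSE), through which XBP1 and ATF6 act. Promoter windows of RefSeq (GRCm38.p6), which run from 250 bases before to 50 bases after a transcription start, were matched for 29 of the 38 genes by symbol. No window was in the table for Atf6, Manf, Hyou1, Derl1, Ppp1r15b, Hspa8, Hsp90aa1, Hsp90ab1 and Hsf1. Both strands were searched for exact matches. The ERSE, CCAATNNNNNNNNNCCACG, was in 39 of all 32851 windows (0.119%) and in those of 9 members, namely Hspa5, Hsp90b1, Calr, Canx, Pdia6, Dnajc3, Creld2, Syvn1 and Derl3. The shorter ERSE-II, ATTGGNCCACG, was in 12 windows (0.0365%), of which those of Herpud1 and Dnajb11 belonged to members. The UPRE, TGACGTGG, was in 0.676% of windows and in that of no member. A heat shock element of 3 units, GAANNTTCNNGAA, was in 0.603% of windows and, among members, in that of Hsph1. The list collects textbook targets of the response, so these matches describe it and are no result of the experiment.

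Sequences of 5 of these genes are shown because they carry the same element or its shorter form and yet had log2 fold changes of either sign between the genotypes. Each is written 5′ to 3′ on the strand of its gene, with the matched element in capitals.
Hspa5, chr2:34772005-34772063 (+): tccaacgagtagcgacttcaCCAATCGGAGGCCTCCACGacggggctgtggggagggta
Hsp90b1, chr10:86705513-86705676 (-), with 2 matches: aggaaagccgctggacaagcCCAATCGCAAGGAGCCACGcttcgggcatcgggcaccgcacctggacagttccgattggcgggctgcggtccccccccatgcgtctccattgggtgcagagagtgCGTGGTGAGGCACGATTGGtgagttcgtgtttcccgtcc
Canx, chr11:50325780-50325838 (-): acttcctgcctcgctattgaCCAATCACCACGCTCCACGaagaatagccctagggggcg
Creld2, chr15:88819500-88819558 (+): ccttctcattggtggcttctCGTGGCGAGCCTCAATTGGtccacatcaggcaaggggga
Herpud1, chr8:94386357-94386407 (+), ERSE-II: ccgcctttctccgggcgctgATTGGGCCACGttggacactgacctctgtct
In Creld2 and at the second match of Hsp90b1 the element reads on the opposite strand. Each stretch ended upstream of the start that RefSeq gives its window, although the gene annotation begins Hspa5 at position 34771970, ahead of the stretch printed here.

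The genotypes were compared to learn how loss of Tsc2 moved these genes. A gene was called where edgeR's quasi-likelihood test gave a Benjamini-Hochberg adjusted p under 0.05 over all genes tested and the log2 fold change, Nav-Tsc2 against control, was over 0.5 or under -0.5. Of the members 37 were tested, and 3 were called higher and 3 lower. Higher were Hspb1, a small heat shock protein, and the ER chaperone genes Hyou1 and Creld2. Lower were the J-domain cochaperone Dnajb1, the constitutive HSP70 gene Hspa8 and the ER disulfide isomerase Pdia4. Among all 17178 genes tested, 17.1% were called, 9.12% higher and 8.00% lower, so that the share of members called, 16.2%, was near that of all genes. With no fold threshold 10 members had an adjusted p under 0.05, 4 higher and 6 lower, against 21.1% of all genes. That number was 8 with the replicate number as a block, where Creld2 and Hsp90b1 were lost, and 18 in a limma fit of single libraries. The 4 control mice did not overlap with the 4 Nav-Tsc2 mice in 14 members, 7 of them higher and 7 lower, against 26.9% of all genes. The median log2 fold change of the members was 0.11, and that of all genes 0.01. Derl3, a derlin of secretory tissues, was not tested: it had 57 counts in all libraries together and none in 19 of 24.

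**Figure D1:**
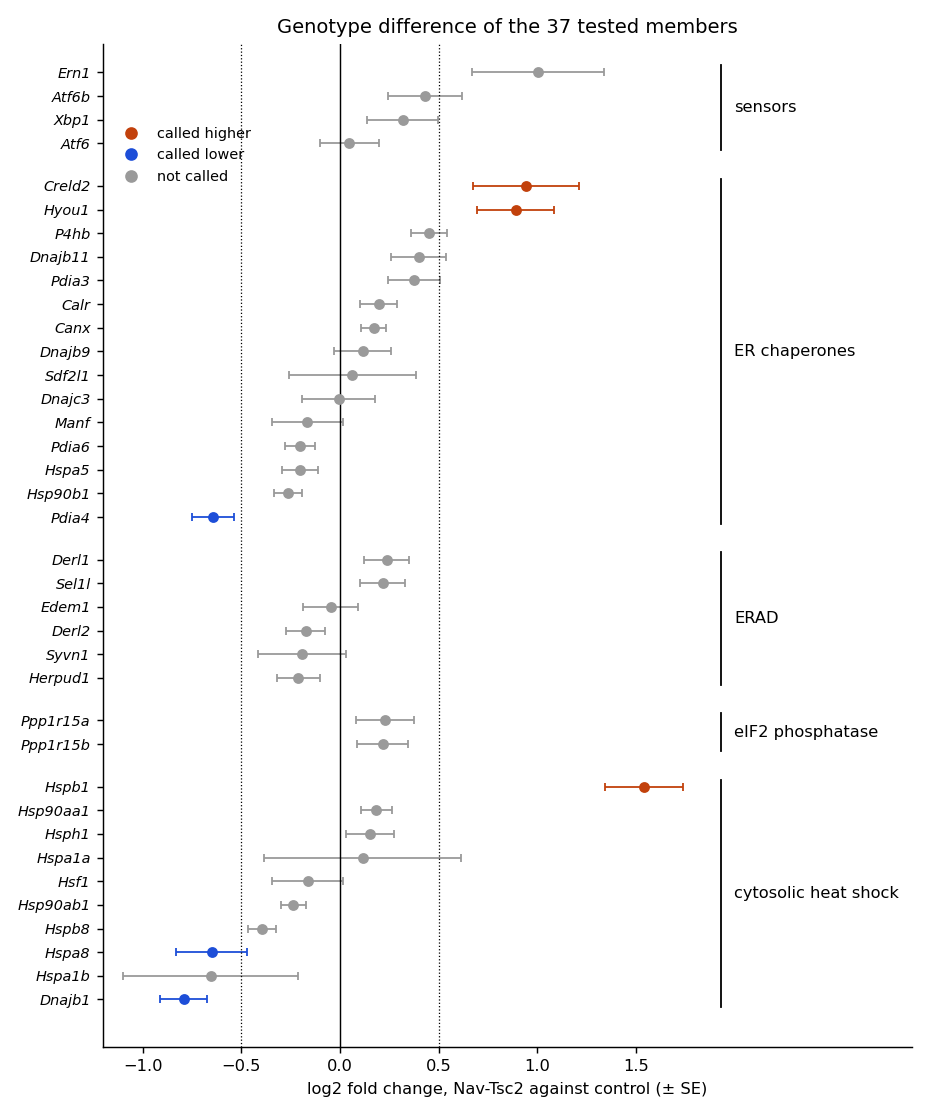
Log2 fold change of each tested member, Nav-Tsc2 against control, with bars of 1 SE from edgeR (n = 4 mice per genotype), ordered within the 5 groups; dotted lines mark 0.5 and -0.5. Called members stand at both ends of the ER chaperones and of the cytosolic heat shock genes, while the ERAD genes lie between -0.21 and 0.24.

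The 4 sensors and factors had positive log2 fold changes in the main test, from 0.05 to 1.00 with a median of 0.37. None was called, against 17.1% of all genes. At an unadjusted p under 0.05 stood 2 of them, Ern1 and Atf6b, against 33.7% of all genes, and DESeq2 called 1, Ern1. Ern1, which encodes IRE1, the sensor with kinase and endonuclease activity, was the least abundant, with 0.407 CPM per kb of exon in control neurons. It stood at 3.83, 1.496, 3.65 and 4.34 CPM in control replicates 1 to 4 and at 7.86, 6.76, 5.72 and 6.40 CPM in Nav-Tsc2 replicates 1 to 4. No mouse of one genotype reached the range of the other, yet the adjusted p was 0.0603 (log2 fold change = 1.00, SE 0.33). DESeq2 (adjusted p = 0.0150) and a limma fit of single libraries in which mouse was a random effect called it higher, the second with a larger log2 fold change of 1.59 (adjusted p = 0.00696).

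Xbp1, the substrate of IRE1, had the highest level of this group per length, 15.5 CPM per kb in control neurons. Its values were 47.4, 35.8, 68.3 and 49.4 CPM in control and 70.7, 60.9, 55.3 and 63.6 CPM in Nav-Tsc2 mice. The genotypes overlapped, with control replicate 3 above 3 of the 4 Nav-Tsc2 mice (log2 fold change = 0.32, SE 0.18, adjusted p = 0.250). Counts per gene do not separate spliced from unspliced Xbp1. Atf6 differed by 0.05 on the log2 scale (SE 0.15, adjusted p = 0.867), and its relative Atf6b by 0.43 (SE 0.19, adjusted p = 0.140).

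Of the PERK branch the 38 genes hold the phosphatase subunits. Its other genes were taken from a separate list of 17 signal genes of the response, chosen with earlier results of these data known. That list also holds genes outside the branch, such as Mbtps1, Creb3 and Ern2. Of the whole list 6 were called higher (35.3%) and 0 lower, against 9.12% and 8.00% of all genes. Atf4, the factor translated when eIF2 is phosphorylated, stood at 88.9, 76.1, 102 and 81.9 CPM in control and at 194, 199, 208 and 194 CPM in Nav-Tsc2 mice. All Nav-Tsc2 mice were far above all control mice (log2 fold change = 1.19, SE 0.10, adjusted p = 9.4e-05). Eif2ak3, which encodes PERK itself, rose from 29.0 ± 5.24 to 79.0 ± 9.55 CPM (SD, n = 4; log2 fold change = 1.45, SE 0.15, adjusted p = 0.000264 by edgeR). Ddit3, the proapoptotic factor CHOP, rose by 1.35 (SE 0.12, adjusted p = 0.000132), Atf5 by 1.61 (SE 0.25, adjusted p = 0.00190) and Bax, an effector of apoptosis, by 0.66 (SE 0.11, adjusted p = 0.00257) on the same scale. Like Bax, the remaining call, Creb3l2, an ER membrane factor, lies outside the PERK branch, and it was named after its values were seen. Its call was kept in 6 of 16 other fits (log2 fold change = 0.89, SE 0.28, adjusted p = 0.0457). The source of the higher Atf4, Ddit3 and Atf5 RNA was not tested.

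**Figure D2:**
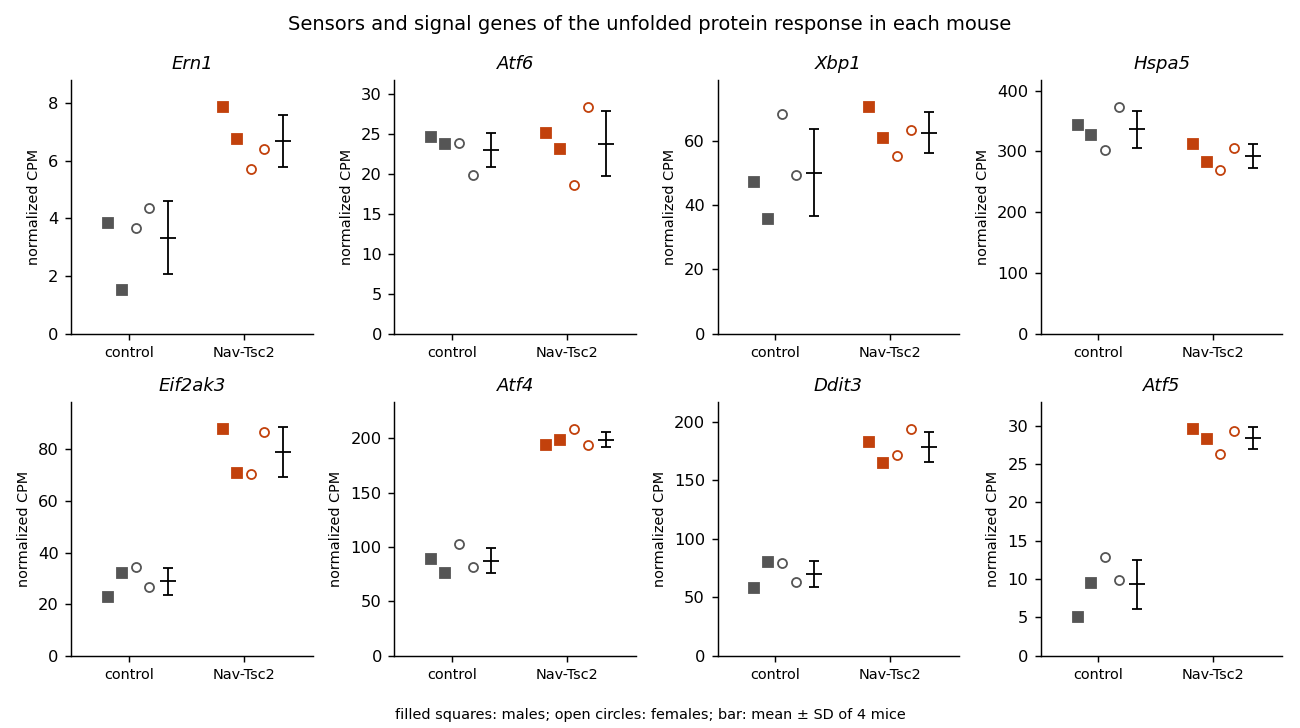
Normalized CPM in each mouse for the sensors Ern1 and Atf6, the factor Xbp1 and the chaperone Hspa5 (top). The bottom panels hold the signal genes Eif2ak3, Atf4, Ddit3 and Atf5. Males are filled squares and females open circles, with the mean ± SD of 4 mice beside them. In the bottom panels the Nav-Tsc2 mice stand clear above the control mice, from 26.3 CPM upward for Atf5 and from 165 CPM upward for Ddit3, while for Atf6, Xbp1 and Hspa5 the genotypes overlap.

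Chaperones and folding enzymes of the ER, 15 in all, took both directions. Hyou1 and Creld2 were called higher, Pdia4 was called lower, and 12 were not called. The share called, 20.0%, was near the 17.1% of all genes. Log2 fold changes ran from -0.64 to 0.94 with a median of 0.12, and 9 of 15 were positive. Hyou1 (chr9:44379490-44392369) encodes the ER chaperone GRP170, which exchanges nucleotides on BiP. It stood at 11.0, 12.6, 11.3 and 18.5 CPM in control and at 26.6, 25.3, 20.0 and 27.2 CPM in Nav-Tsc2 mice. The closest mice were control replicate 4 and Nav-Tsc2 replicate 3, and the genotypes did not overlap. The change was 1.85-fold (log2 fold change = 0.89, SE 0.19, adjusted p = 0.0109), and each of 16 other fits called it too (adjusted p between 0.000246 and 0.0378).

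Creld2 (chr15:88819646-88826683), an ER protein that is induced in the response and takes part in disulfide folding, was low, with 2.91, 1.87, 2.32 and 2.01 CPM in control and 4.26, 4.65, 4.15 and 4.47 CPM in Nav-Tsc2 mice. Every Nav-Tsc2 mouse was above every control mouse. It differed by 0.94 on the log2 scale (SE 0.27, adjusted p = 0.0338), but the adjusted p was 0.0940 with the replicate number as a block and 0.0781 without the low-count filter. It passed the test in 7 of 16 alternatives, and leaving out any 1 mouse but control replicate 1 ended the call, with adjusted p between 0.0514 and 0.0912.

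Pdia4 (chr6:47796141-47813430), the isomerase ERp72, stood at 90.4, 83.5, 76.8 and 82.7 CPM in control and at 48.5, 47.0, 58.1 and 59.7 CPM in Nav-Tsc2 mice. All control mice were above all Nav-Tsc2 mice. Its log2 fold change came to -0.64 (SE 0.11, adjusted p = 0.00290), and all 16 alternatives called it lower. The log2 difference was -0.86 between the males and -0.44 between the females. The test of that interaction had an adjusted p of 0.473 and an unadjusted p under 0.05, as did 9.22% of all genes.

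Of the other disulfide isomerases 2 had positive log2 fold changes and 1 a negative one. P4hb, the isomerase PDI, had 77.5 ± 4.77 CPM in control and 106 ± 9.25 CPM in Nav-Tsc2 mice (SD, n = 4; log2 fold change = 0.45, SE 0.09, adjusted p = 0.00755, edgeR), without overlap and just under the fold threshold. It was called higher without Nav-Tsc2 replicate 4 (0.50, adjusted p = 0.00911). Pdia3, which works with the lectin chaperones, differed by 0.37 (SE 0.13, adjusted p = 0.0751), and Pdia6 by -0.20 (SE 0.08, adjusted p = 0.0971).

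The abundant lectins and the ER forms of HSP70 and HSP90 had smaller differences, and none was called. Canx, the membrane lectin calnexin, had the highest level of the group per length, 165 CPM per kb in control neurons. It stood at 775, 772, 766 and 781 CPM in control and at 918, 848, 878 and 841 CPM in Nav-Tsc2 mice. The control mice lay close together and all below the Nav-Tsc2 mice, with a small difference that missed the threshold (log2 fold change = 0.17, SE 0.06, adjusted p = 0.0853). Its soluble partner Calr, calreticulin, differed by 0.20 (SE 0.09, adjusted p = 0.169).

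Hspa5 encodes BiP, the HSP70 of the ER and the usual gauge of ER stress. It stood at 344, 327, 302 and 373 CPM in control and at 312, 282, 269 and 306 CPM in Nav-Tsc2 mice. The genotypes overlapped and the log2 fold change was -0.20 (SE 0.09, adjusted p = 0.141). Hsp90b1, the HSP90 of the ER, had 269 ± 10.8 CPM in control and 224 ± 10.7 CPM in Nav-Tsc2 mice (SD, n = 4; log2 fold change = -0.26, SE 0.07, adjusted p = 0.0276, edgeR), without overlap and below the fold threshold. With the replicate number as a block its adjusted p was 0.0633. Of its exon bases 15.7% also belong to other annotated genes.

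Among the J-domain proteins that serve BiP, Dnajb11 differed by 0.40 (SE 0.14, adjusted p = 0.0725), Dnajb9 by 0.12 (SE 0.14, adjusted p = 0.635) and Dnajc3, which also inhibits PERK, by -0.01 (SE 0.19, adjusted p = 0.986). Dnajb11 was called higher without control replicate 2 (0.51, adjusted p = 0.0286). Among these J-domain genes Dnajc3 varied most between control mice, from 35.9 CPM in replicate 1 to 65.5 CPM in replicate 3. Sdf2l1 and Manf, both secreted or retained ER proteins that are induced by stress, differed by 0.06 and -0.16 with adjusted p of 0.923 and 0.576.

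Genes that carry the ERSE took both signs. Of the 17 genes with the element that were matched by symbol and tested, 8 were members. Their log2 fold changes lay between -0.26 for Hsp90b1 and 0.94 for Creld2, with a median of -0.10, and 1 was called, Creld2. Canx and Calr were on the positive side, and Hspa5, Pdia6, Syvn1 and Dnajc3 on the negative side. Among the other 9 of the 17 genes 1 was called, higher. Ero1b also has the element but was missed by the symbol match, since the counts name it Ero1lb. It was not called (log2 fold change = 0.22, SE 0.26, adjusted p = 0.606, edgeR). Over all genes 17.1% were called.

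**Figure D3:**
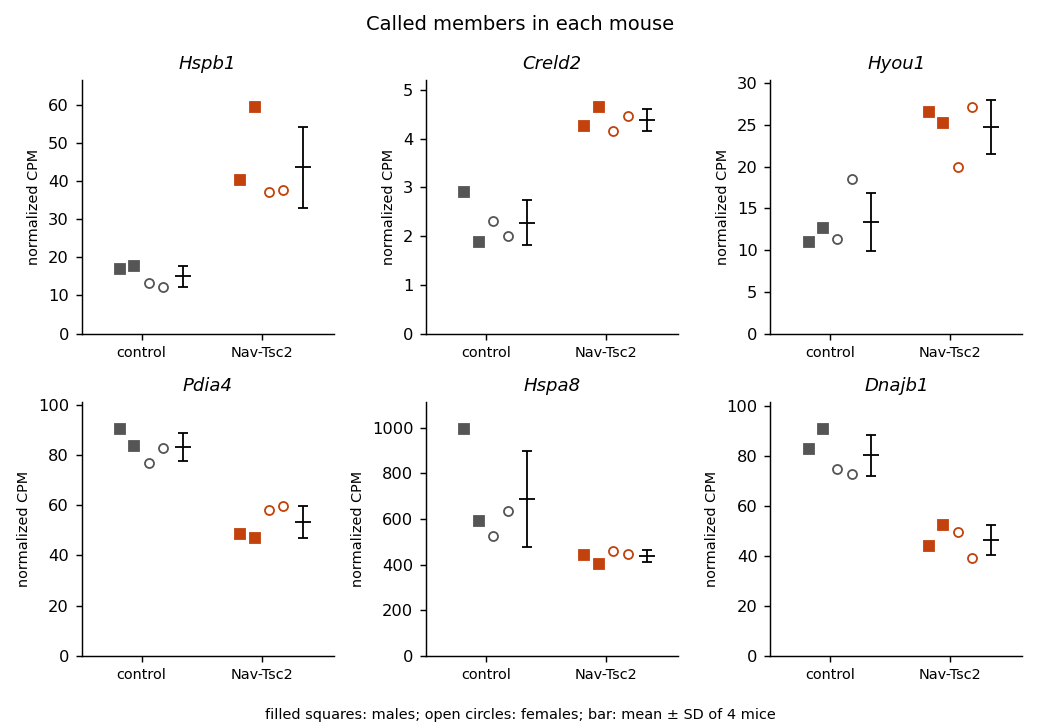
Normalized CPM of the 6 called members in each mouse, with males as filled squares, females as open circles and the mean ± SD of 4 mice beside them. The genotypes do not overlap in any panel, and control replicate 1 of Hspa8 stands at 995 CPM, far above the other control mice.

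None of the 6 tested ERAD genes was called by edgeR, none had an unadjusted p under 0.05, and DESeq2 called none. Over all genes edgeR called 17.1%, and 33.7% had an unadjusted p under 0.05. Log2 fold changes lay between -0.21 and 0.24 with a median of -0.11. Herpud1, a stress-induced scaffold of the retrotranslocation complex, had the highest level per length, 49.5 CPM per kb in control neurons. It stood at 115, 115, 108 and 124 CPM in control and at 108, 109, 101 and 80.2 CPM in Nav-Tsc2 mice, and the genotypes overlapped (log2 fold change = -0.21, SE 0.11, adjusted p = 0.207). Syvn1, the ubiquitin ligase HRD1, differed by -0.19 (SE 0.22), and its partner Sel1l by 0.22 (SE 0.12). Derl1, Derl2 and the mannosidase-like Edem1 lay within the same range.

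Both regulatory subunits of the eIF2 phosphatase, which reverse the signal of PERK, were uncalled, neither had an unadjusted p under 0.05, and DESeq2 called none. Ppp1r15a, the inducible subunit GADD34, had the higher level per length, 11.9 CPM per kb in control neurons. It stood at 36.5, 41.7, 29.8 and 32.3 CPM in control and at 47.5, 42.7, 41.5 and 32.8 CPM in Nav-Tsc2 mice. The ranges overlapped and the log2 fold change was 0.23 (SE 0.15, adjusted p = 0.318). The constitutive Ppp1r15b differed by 0.22 (SE 0.13, adjusted p = 0.274). Ppp1r15a is a known target of ATF4, whose mRNA was called higher in the same mice. A link between the 2 genes in these data was not tested.

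The 10 cytosolic heat shock genes held both the largest rise and the largest fall among called members. Of these genes 1 was called higher (10%) and 2 lower (20%), against 9.12% and 8.00% of all genes. Their median log2 fold change was -0.20. Hspb1 (chr5:135887919-135889563) encodes HSP27, a small heat shock protein that binds unfolded proteins and actin and is known to rise in sensory neurons after nerve injury. It stood at 17.0, 17.7, 13.2 and 12.1 CPM in control and at 40.4, 59.5, 37.1 and 37.6 CPM in Nav-Tsc2 mice. The genotypes stood far apart, also over single libraries, of which the highest control library had 20.1 CPM and the lowest Nav-Tsc2 library 29.6 CPM. The change was 2.91-fold (log2 fold change = 1.54, SE 0.20, adjusted p = 0.000719), and all 16 alternatives called it.

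Hspb8, a second small heat shock protein that works in chaperone-assisted autophagy, had a log2 fold change of the opposite sign. It had 418 ± 21.9 CPM in control and 318 ± 11.2 CPM in Nav-Tsc2 mice (SD, n = 4; log2 fold change = -0.40, SE 0.07, adjusted p = 0.00414, edgeR). No library of one genotype overlapped with the other, the lowest control library having 373 CPM and the highest Nav-Tsc2 library 362 CPM, but the change was below the fold threshold. Per length, Hspb8 had 215 and Hspb1 14.5 CPM per kb in control neurons.

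Dnajb1 (chr8:83608193-83612653) encodes the major stress-inducible HSP40, which delivers clients to HSP70. It stood at 82.9, 90.9, 74.8 and 72.9 CPM in control and at 44.0, 52.5, 49.8 and 39.3 CPM in Nav-Tsc2 mice. All control mice were above all Nav-Tsc2 mice (log2 fold change = -0.79, SE 0.12, adjusted p = 0.00172), and the call held in all 16 alternatives.

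Hspa8 (chr9:40800984-40810087), the constitutive HSP70 of the cytosol, which also feeds chaperone-mediated autophagy and uncoats clathrin vesicles, stood at 995, 592, 525 and 634 CPM in control and at 441, 402, 461 and 445 CPM in Nav-Tsc2 mice. The Nav-Tsc2 mice lay close together and below all control mice, and control replicate 1 was far above the others. The log2 fold change was -0.65 (SE 0.18, adjusted p = 0.0293). Without control replicate 1 it was -0.42 (adjusted p = 0.0168), which is inside the fold threshold, and without any 1 of the Nav-Tsc2 mice the adjusted p lay between 0.0584 and 0.0846.

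The cytosolic HSP90 pair had small log2 fold changes of opposite sign. Hsp90ab1, the constitutive form, had the highest level of all members per length, 1386 CPM per kb in control neurons, above 99.5% of tested genes. It stood at 4129, 4276, 4028 and 4197 CPM in control and at 3646, 3595, 3342 and 3535 CPM in Nav-Tsc2 mice. The ranges were apart, and the log2 fold change of -0.24 (SE 0.06, adjusted p = 0.0243) was below the fold threshold. The inducible form Hsp90aa1 was higher in every Nav-Tsc2 mouse (329 to 342 CPM) than in any control mouse (263 to 317 CPM), with a log2 fold change of 0.18 (SE 0.08, adjusted p = 0.131).

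Hspa1a and Hspa1b, the heat-inducible HSP70 genes, were low, between 0.502 and 3.79 CPM in all mice, and did not pass the test (adjusted p = 0.906 and 0.342). They are near-identical copies, so reads of one could be lost or placed with the other, and 19.0% of the exon bases of Hspa1a also belong to a gene on the other strand. Their regulator Hsf1 differed by -0.16 (SE 0.18, adjusted p = 0.575), and Hsph1, an HSP110 that exchanges nucleotides on HSP70, by 0.15 (SE 0.12, adjusted p = 0.424). Dissociation and sorting can induce heat shock and early genes, and a list of 10 early genes summed to 361 to 812 CPM in control and 556 to 627 CPM in Nav-Tsc2 mice, with Dusp1 called higher and Fos and Btg2 lower. The part of that handling in the heat shock values was not tested.

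**Figure D4:**
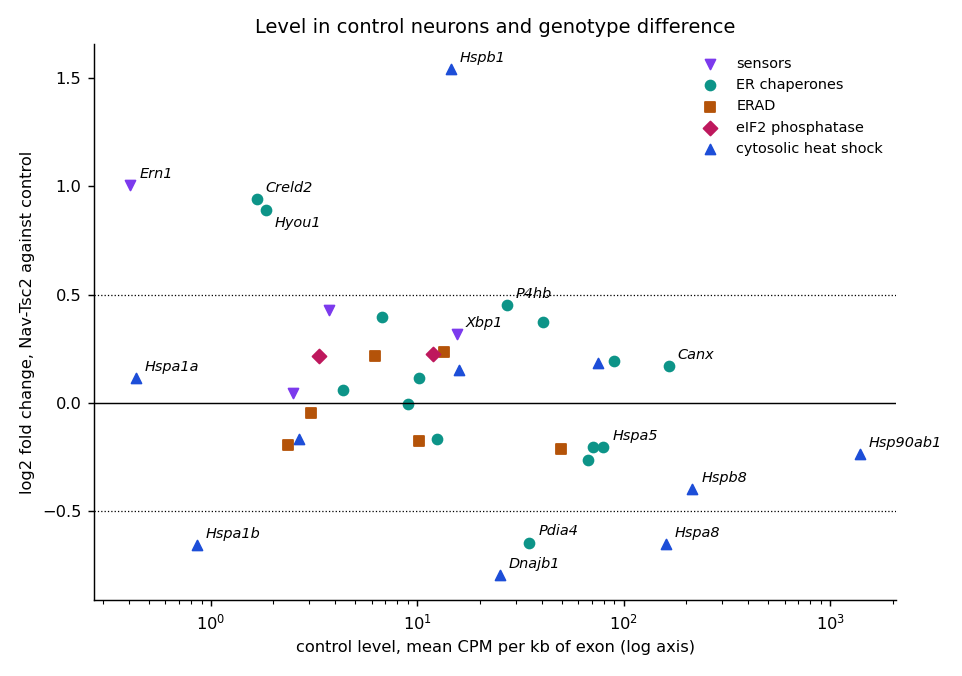
Mean level in control mice per kb of exon (log axis) against the log2 fold change, Nav-Tsc2 against control, for the 37 tested members, with a marker for each of the 5 groups and dotted lines at 0.5 and -0.5. The called higher members lie below 15 CPM per kb and the called lower members above 25 CPM per kb. Uncalled members of both signs lie in both ranges, for example Hspa1b (-0.66) in the lower and P4hb (0.45) in the upper.

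Other genes of protein folding, listed by function but also with earlier results of these data known, were counted in the same fit. Over all genes 9.12% were called higher and 8.00% lower. Of 30 further folding genes of the ER, 4 were called higher and 2 lower, which as a share, 20.0%, was near the 17.1% of all genes. Ero1l, the oxidase that recharges PDI, rose by 1.04 (SE 0.15, adjusted p = 0.00151), as did Pdia5, Serp1 and Lman2 by 0.92, 0.69 and 0.60, although the call of Lman2 was kept in 8 of 16 other fits. Fkbp11, a prolyl isomerase, fell by 1.62 (SE 0.39, adjusted p = 0.0174), and Dnajc10, an ER disulfide reductase, by 0.51 (SE 0.10, adjusted p = 0.00795). Fkbp11 was low, with a mean of 2.67 CPM in control and 0.866 CPM in Nav-Tsc2 mice. Its call was kept in 14 of 16 other fits and that of Dnajc10 in 13.

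Of 22 further ERAD genes 2 were higher and 2 lower, or 18.2%. Vcp, the ATPase that pulls proteins from the membrane, rose by 0.51 (SE 0.13, adjusted p = 0.0250), while the log2 fold changes of Ngly1, which removes glycans, and Edem3, an ER mannosidase, were -0.58 and -0.52 (adjusted p = 0.0158 and 0.0264). The calls of Vcp and Edem3 were each kept in 7 of 16 other fits and that of Ngly1 in all 16. The translocon and signal peptidase list had 0 of 22 genes called, with 8 at an unadjusted p under 0.05, which is close to the 33.7% of all genes.

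Of 29 further cytosolic chaperones 2 were higher and 2 lower, or 13.8%. Dnajb4, a close relative of Dnajb1, fell by 0.80 (SE 0.15, adjusted p = 0.00461), and the HSP90 cochaperone Fkbp4 by 0.53 (SE 0.10, adjusted p = 0.00542). Dnajb5, another relative, rose by 1.18 (SE 0.22, adjusted p = 0.00553) and Bag1, which exchanges nucleotides on HSP70, by 0.61 (SE 0.14, adjusted p = 0.0133). None of 14 subunits of the chaperonin TRiC and of prefoldin was called, with 6 at an unadjusted p under 0.05 against 33.7% of all genes. Of 10 mitochondrial chaperones and proteases, Hspa9, the mitochondrial HSP70, rose by 1.23 (SE 0.09, adjusted p = 4.4e-05) and the protease Lonp1 by 1.05 (SE 0.15, adjusted p = 0.00144). These 2 calls were 20.0% of that list, near the 17.1% of all genes.

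Males and females were also compared, with 2 mice of each sex per genotype. No member was called for sex, against 0.0291% of all genes, and 3 members had an unadjusted p under 0.05, namely Dnajc3 (0.36, female against male), Ppp1r15a (-0.31) and Hspb1 (-0.44), against 6.66% of all genes. No member had a genotype difference that differed between the sexes at an adjusted p under 0.05, against 0.00582% of all genes. For that interaction 2 had an unadjusted p under 0.05, Pdia4 and Hsph1, against 9.22% of all genes. Only edgeR was run for these terms. The Hspb1 difference between genotypes was 1.496 in males and 1.55 in females on the log2 scale, and that of Dnajb1 -0.85 and -0.74.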

How the data were processed

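RNA-seq of sorted DRG cells was analysed from 24 libraries of 8 mice. The authors aligned single reads of 50 bases to mm10 and counted them per gene, and they deposited raw counts without normalization (STAR, HTSeq, FastQC and DESeq2 are named in the submitters' processing notes). Versions, annotation release and strand setting are not given in the sources used here. HTSeq left out reads with several placements (a median of 38.6% of control and 40.6% of Nav-Tsc2 totals), which can lower genes with near-identical copies such as Hspa1a, Hspa1b, Hspa8 and the HSP90 genes. Reads were amplified without molecular identifiers. A table of the authors' own fold changes and p-values was not used.

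Summed over its 3 libraries, each mouse's counts were filtered (filterByExpr), TMM-scaled and tested with edgeR 4.0.16 in R 4.3.3. Each SE was derived from the log2 fold change and the root of its F statistic. limma 3.58.1 and DESeq2 1.42.0 served alternatives, and the test was tried on simulated data. CPM per kb used exon bases of GRCm38. No libraries held identical values. Deviations from genotype means correlated between mice of equal replicate number at 0.184, 0.185, 0.108 and 0.199 over 8445 genes, all above the limit of 0.1 set for pairing. Mice of unequal number were not compared. Sex is shared within a number, so these correlations alone do not separate pairing from sex. The main test did not use the replicate number, which entered as a block in an alternative. All called members, the member with the highest control CPM per kb of each group and members whose call changed with an alternative were named, and of other lists at most 5 called genes per direction. Other members and other windows were named after their values were seen. Members and lists were chosen with earlier results of these data known. A called gene of another list is not reported here.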

Additional observations from a re-analysis of the deposited data

Results flagged for a closer look

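For each of the 37 tested members, the highest and the lowest mouse of each genotype were compared with the others of that genotype by Dixon's criterion. Of 74 groups of 4 mice 5 held a mouse far from the rest, where chance gives about 1 in 20, or 3.7. Atf6 was at 19.9 CPM in control replicate 4, below the 23.7 to 24.5 CPM of the other control mice. Dnajb11 was at 26.6 CPM in control replicate 2, above the 19.6 to 20.4 CPM of the others, and without that mouse it was called higher. Sel1l was at 70.5 CPM in Nav-Tsc2 replicate 4, where the others had 58.2 to 59.2 CPM, and Hspa1b was at 2.20 CPM in the same mouse, where the others had 1.25 to 1.34 CPM. Hspb1 was at 59.5 CPM in Nav-Tsc2 replicate 2, above the 37.1 to 40.4 CPM of the others, and was called higher with and without that mouse.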

How the results depend on the processing

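Of the 37 members tested in 17 alternatives, 593 of 629 values kept their direction and their side of the thresholds. Without a fold threshold 4 members were higher instead of 3 and 6 lower instead of 3, against 21.1% of all genes either way. Of the ER chaperones 3 were higher instead of 2 and 2 lower instead of 1. Of the heat shock genes 4 were lower instead of 2. DESeq2, and limma on single libraries with mouse as random effect, each called 1 sensor higher instead of 0. With a replicate block, and likewise without a low-count filter, 1 ER chaperone was higher instead of 2, Creld2 being lost. The block changed no other call of a member at the fold threshold. Members with an adjusted p under 0.05 at any fold numbered 10, and 6 without Nav-Tsc2 replicate 1 or without Nav-Tsc2 replicate 4. Leaving out 1 mouse at a time gave 1 to 2 ER chaperones higher and 1 to 2 heat shock genes lower. In 5 members the sign turned in 14 values, none of them called. For Dnajc3 the value was 0.033 with the replicate block, 0.022 with a sex covariate and 0.021 with mouse as random effect. Leaving out 1 mouse at a time gave -0.050 to 0.15 for Atf6, -0.11 to 0.20 for Dnajc3, -0.14 to 0.31 for Sdf2l1, -0.11 to 0.033 for Edem1 and -0.15 to 0.42 for Hspa1a. The cause was not tested. Over all genes the median moved between -0.021 and 0.088. Depth limits Hspa1a, Hspa1b, Creld2 and Derl3, which had 57 to 1487 counts in all.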
